A study of Mus musculus with 8 samples.

Results

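Peaks of histone H4 lysine 12 lactylation (H4K12la) that lie deep inside very long genes were examined in mouse brain. A very long gene was a protein-coding gene whose RefSeq span in GRCm38 is longer than 200 kb, and an inner peak was one that lies wholly inside such a gene and more than 10 kb from both of its ends. There are 990 such genes among 21887 protein-coding genes, with spans from 200.095 kb to 2390.39 kb and a median of 325 kb. Their inner bases add up to 400 Mb, which is 14.7% of the chromosomes used. Of 230899 peaks in the 8 lists, 28821 (12.5%) were inner peaks, and 143 of these lay inside more than 1 very long gene. Merging inner peaks that overlapped by 1 base or more gave 10736 regions, out of 73355 regions from all peaks.

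The libraries were made by CUT&Tag, in which an antibody against the mark directs a Tn5 transposase to cut the DNA beside it. Cells came from whole mouse brain without cerebellum after dissociation and removal of myelin. The 4 groups had 2 libraries each and crossed 2 preparations, total cells and microglia, with 2 genotypes, WT and 5XFAD. The 5XFAD mouse carries mutated human transgenes of familial Alzheimer disease that a neuronal Thy1 promoter drives. Microglia were purified from the total cells with beads against CD11b, a surface protein that other myeloid cells also carry. The labels used here do not state age, sex or how many animals went into a library. They also do not state that replicate libraries derive from different mice, so p-values measure only the spread between these samples, which may be technical.

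H4K12la is an acyl mark placed on a histone tail with a lactyl group derived from lactate, and like histone acetylation it is found mostly at active promoters and enhancers. Genes of this length consist almost wholly of introns. Many of them encode adhesion molecules, receptors and scaffolds of synapses, and others encode transcription factors and signalling proteins that many cell types use. Introns of long genes hold enhancers, internal start sites of the same gene, and small genes nested inside the larger one.

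The lists held 25235 and 22506 peaks on chromosomes 1 to 19, X and Y in total cells of WT mice and 32928 and 22771 in total cells of 5XFAD mice. The WT microglia lists held 22284 and 33479 peaks, the 5XFAD ones 29931 and 41765. Sequencing depth is unknown because only peaks are given, and a missing peak means only that none was listed. Gene-end peaks, within 2 kb of either annotated end, were checked at marker genes: 9 to 10 of 10 microglial markers had one in each microglia library, and 1, 2, 5 and 3 in the total cell libraries in the order above. Of 6 neuronal markers, each library had 0 to 1 with such a peak, in both preparations. Of 4 oligodendrocyte markers 0 had one in every total cell library, and 1, 1, 1 and 2 in the microglia libraries. Astrocyte markers had 1 to 2 of 4 in total cells and 2 of 4 in microglia, and other leukocyte markers 0 of 5 and 0 to 1 of 5. The part that cell composition has in the differences between preparations was not tested, and fewer cells of a type and less mark per cell cannot be told apart. The first library of total cells of 5XFAD mice, which had 5 of the 10 microglial markers, stood nearer to microglia than the other total cell libraries. Its inner peaks had a Jaccard index (shared bases over all bases that either list covers) of 0.204 to 0.235 with the 4 microglia libraries, and of 0.226 and 0.191 with the total cell libraries of WT mice. The index with microglia was 0.137 to 0.186 for the second 5XFAD library of total cells and 0.0727 to 0.115 for those of WT mice. Results between preparations are therefore also given without that first library.

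The few inner peaks that sit on a known start site show what lies at these positions. RefSeq promoter windows of GRCm38.p6, which run from 250 bases before to 50 bases after a start site, placed 1268 start sites in the inner bases of very long genes. Of these, 391 were alternative starts of a long gene itself and 877 belonged to other genes, each start counted once where long genes overlap. An inner peak in at least 1 library overlapped 113 (28.9%) of the gene's own internal starts and 101 (11.5%) of the starts of other genes. In all 8 libraries 9 and 10 of them, respectively, were overlapped. Internal start windows with a peak in all 8 libraries numbered 19. Those with one in every library of 1 preparation and none of the other numbered 8 for microglia and 3 for total cells. The same counts over all 32851 promoter windows were not made, so these numbers are not read as a trait of internal starts. The sequences of 10 of these internal start windows follow as examples rather than as the full set. They are written 5′ to 3′ on the strand of the gene, and capitals mark GGGCGG (a GC box, bound by Sp-family factors) or GAGGAA (a core of sites for ETS factors), on either strand.
Hdac4, own internal start, all 8 libraries, chr1:92180292-92180591, minus strand: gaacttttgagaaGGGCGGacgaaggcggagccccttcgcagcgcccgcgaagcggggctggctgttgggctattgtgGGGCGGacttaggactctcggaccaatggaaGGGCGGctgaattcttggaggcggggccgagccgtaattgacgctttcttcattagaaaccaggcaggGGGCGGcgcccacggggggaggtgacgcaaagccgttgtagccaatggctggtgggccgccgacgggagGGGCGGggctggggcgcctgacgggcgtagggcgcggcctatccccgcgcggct
Trim32, nested in Astn2, all 8 libraries, chr4:65604736-65605035, plus strand: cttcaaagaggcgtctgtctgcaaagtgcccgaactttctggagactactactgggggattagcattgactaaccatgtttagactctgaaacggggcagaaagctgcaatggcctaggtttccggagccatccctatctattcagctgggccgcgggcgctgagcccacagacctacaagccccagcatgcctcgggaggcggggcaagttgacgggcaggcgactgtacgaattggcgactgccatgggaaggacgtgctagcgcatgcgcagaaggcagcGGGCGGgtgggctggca
Kcnq1ot1, nested in Kcnq1, all 8 libraries, chr7:143296498-143296797, minus strand: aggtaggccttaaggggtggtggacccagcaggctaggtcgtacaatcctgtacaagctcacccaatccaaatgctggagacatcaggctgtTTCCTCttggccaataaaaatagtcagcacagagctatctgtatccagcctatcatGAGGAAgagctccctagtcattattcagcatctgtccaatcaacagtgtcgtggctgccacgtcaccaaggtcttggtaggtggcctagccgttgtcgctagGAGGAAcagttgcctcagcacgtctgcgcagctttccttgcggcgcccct
Sgms1, own internal start, all 8 libraries, chr19:32210964-32211263, minus strand: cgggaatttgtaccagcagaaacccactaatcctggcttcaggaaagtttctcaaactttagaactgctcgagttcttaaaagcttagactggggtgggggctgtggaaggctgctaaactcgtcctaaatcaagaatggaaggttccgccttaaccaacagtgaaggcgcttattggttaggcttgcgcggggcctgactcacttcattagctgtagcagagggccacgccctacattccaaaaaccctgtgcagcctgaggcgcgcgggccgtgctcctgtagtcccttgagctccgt
Sgms1, own internal start, microglia only, chr19:32349267-32349566, minus strand: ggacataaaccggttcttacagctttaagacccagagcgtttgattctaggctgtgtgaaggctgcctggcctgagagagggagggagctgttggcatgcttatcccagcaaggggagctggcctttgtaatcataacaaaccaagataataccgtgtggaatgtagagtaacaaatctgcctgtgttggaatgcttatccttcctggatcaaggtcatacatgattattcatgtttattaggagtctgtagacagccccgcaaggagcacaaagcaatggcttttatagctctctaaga
Tbxas1, own internal start, microglia only, chr6:38918736-38919035, plus strand: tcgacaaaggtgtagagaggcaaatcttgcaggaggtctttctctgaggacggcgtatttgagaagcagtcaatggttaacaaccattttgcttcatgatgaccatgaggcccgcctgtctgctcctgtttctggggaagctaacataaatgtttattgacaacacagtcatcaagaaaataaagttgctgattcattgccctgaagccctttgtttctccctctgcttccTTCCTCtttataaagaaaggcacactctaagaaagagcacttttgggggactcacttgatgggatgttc
Tmcc3, own internal start, microglia only, chr10:94575007-94575306, plus strand: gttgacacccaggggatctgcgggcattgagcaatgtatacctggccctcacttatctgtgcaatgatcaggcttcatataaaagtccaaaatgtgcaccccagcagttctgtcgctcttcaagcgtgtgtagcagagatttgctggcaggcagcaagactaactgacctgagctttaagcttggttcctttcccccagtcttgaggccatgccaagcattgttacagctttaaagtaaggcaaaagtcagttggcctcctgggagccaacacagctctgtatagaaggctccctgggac
Dst, own internal start, total cells only, chr1:34011345-34011644, plus strand: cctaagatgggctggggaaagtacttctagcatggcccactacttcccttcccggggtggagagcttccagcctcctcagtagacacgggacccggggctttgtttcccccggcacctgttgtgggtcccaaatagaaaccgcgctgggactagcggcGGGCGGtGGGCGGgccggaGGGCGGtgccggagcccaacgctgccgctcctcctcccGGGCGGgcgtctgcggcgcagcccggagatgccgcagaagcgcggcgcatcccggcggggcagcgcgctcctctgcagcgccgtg
Phldb2, own internal start, total cells only, chr16:45844329-45844628, minus strand: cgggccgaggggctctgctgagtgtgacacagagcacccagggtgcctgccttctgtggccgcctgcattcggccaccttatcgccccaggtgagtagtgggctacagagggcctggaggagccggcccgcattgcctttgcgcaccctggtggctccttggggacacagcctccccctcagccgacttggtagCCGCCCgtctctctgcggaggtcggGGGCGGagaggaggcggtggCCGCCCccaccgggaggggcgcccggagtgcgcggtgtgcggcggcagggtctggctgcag
Pde7b, own internal start, total cells only, chr10:20548279-20548578, minus strand: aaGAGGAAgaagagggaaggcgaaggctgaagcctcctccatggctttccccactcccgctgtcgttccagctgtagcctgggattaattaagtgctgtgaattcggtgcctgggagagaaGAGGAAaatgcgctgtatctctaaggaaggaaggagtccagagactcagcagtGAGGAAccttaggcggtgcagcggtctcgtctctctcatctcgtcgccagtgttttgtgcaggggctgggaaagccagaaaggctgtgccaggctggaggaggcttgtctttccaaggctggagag

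Hdac4 encodes a class II histone deacetylase, Trim32 a ubiquitin ligase whose gene sits inside Astn2, and Kcnq1ot1 the long noncoding RNA that is transcribed inside the imprinted gene Kcnq1. Sgms1, which encodes a sphingomyelin synthase, carried both kinds of internal start: the first window had a peak in all 8 libraries and the second only in the 4 microglia libraries. Tbxas1 encodes thromboxane A synthase. Dst encodes dystonin, a linker of the cytoskeleton, and Pde7b a phosphodiesterase that degrades cyclic AMP. The 8 microglia-only windows included 3 own starts (Tbxas1, Tmcc3 and the second Sgms1 start) and 5 starts of noncoding genes nested in Eml6, Prkce, Dock8, Glis3 and Tbxas1. All 3 total-cell-only windows were own starts. The Hdac4 window held 32 CG dinucleotides, the Dst window 31 and the Phldb2 window 23, while the second Sgms1 window held 4, the Tbxas1 window 4 and the Tmcc3 window 3. Other windows went against this order: the total-cell-only Pde7b window held 10, the microglia-only window nested in Prkce 14, and the all-library windows of Ank2 and Dock9 5 each.

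GGGCGG, searched on both strands, was present in 35.7% of all 32851 RefSeq promoter windows and in 14.0% of those inside very long genes. Inner windows with a peak in at least 1 library held it in 28.0% of cases (60 of 214), and those without a peak in 11.2% (118 of 1054). It was in 9 of the 19 inner windows with a peak in all 8 libraries, in 2 of the 3 total-cell-only windows and in 0 of the 8 microglia-only windows. GAGGAA, searched in the same way, was in 28.3% of all windows, 25.7% of inner windows with a peak and 27.1% of those without. The median number of CG dinucleotides was 7 over all windows, 6 in inner windows with a peak, 4 in inner windows without and 17 in those with a peak in all 8 libraries. These are descriptions of the letters in the windows and carry no test, and 8 and 3 windows are too few to compare the preparations.

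Start sites accounted for few of the inner peaks. Between 2.20% and 2.76% of the inner peaks of a list overlapped a promoter window of any gene, although such windows cover 0.0901% of the inner bases. Between 6.16% and 7.22% lay within 2 kb of an annotated end of another gene, against 3.26% of the inner bases. The other inner peaks lay more than 2 kb from the annotated ends of other genes. Exons and introns could not be told apart here because only gene spans were used, and the letters of the peaks themselves are not shown because no genome sequence was used.

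Inner peaks of very long genes made up 14.8% and 14.1% of the lists of total cells of WT mice and 13.8% and 13.02% of those of 5XFAD mice. In microglia the shares were 11.2% and 11.7% in WT and 10.9% and 11.3% in 5XFAD mice. The preparations did not overlap: the share was 11.3% ± 0.312 (SD, n = 4) in microglia and 13.9% ± 0.735 (SD, n = 4) in total cells, a difference of -2.65 percentage points (exact two-sided permutation test, p = 0.0286, adjusted over 4 measures 0.0286). This is the smallest p that 4 libraries against 4 can give. It treats the libraries as unpaired. With labels exchanged only within a replicate number, the exact permutation p was 0.0556, the smallest which that design allows. The number of very long genes with an inner peak was 668, 664, 667 and 588 in total cells and 450, 522, 453 and 512 in microglia, again without overlap (mean 647 ± 39.2 against 484 ± 38.1, SD, n = 4 each, exact permutation p = 0.0286, adjusted 0.0286). Without the first library of total cells of 5XFAD mice the differences were -2.68 points and -155.75 genes (adjusted p = 0.0286 for both, exact permutation). With scores of at least 50 alone, neither difference passed (-1.03 points and -63.5 genes, adjusted p = 0.114 for both, exact permutation). This cutoff trimmed the lists unequally. It kept 13487 of 25235 peaks in the first library of total cells of WT mice and 34544 of 41765 in the second of 5XFAD microglia. Peaks inside very long genes were thus spread over more genes in total cells, with nearly equal mean numbers of inner peaks per list (3605 ± 711 in total cells and 3600 ± 938 in microglia, SD, n = 4).

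**Figure D1:**
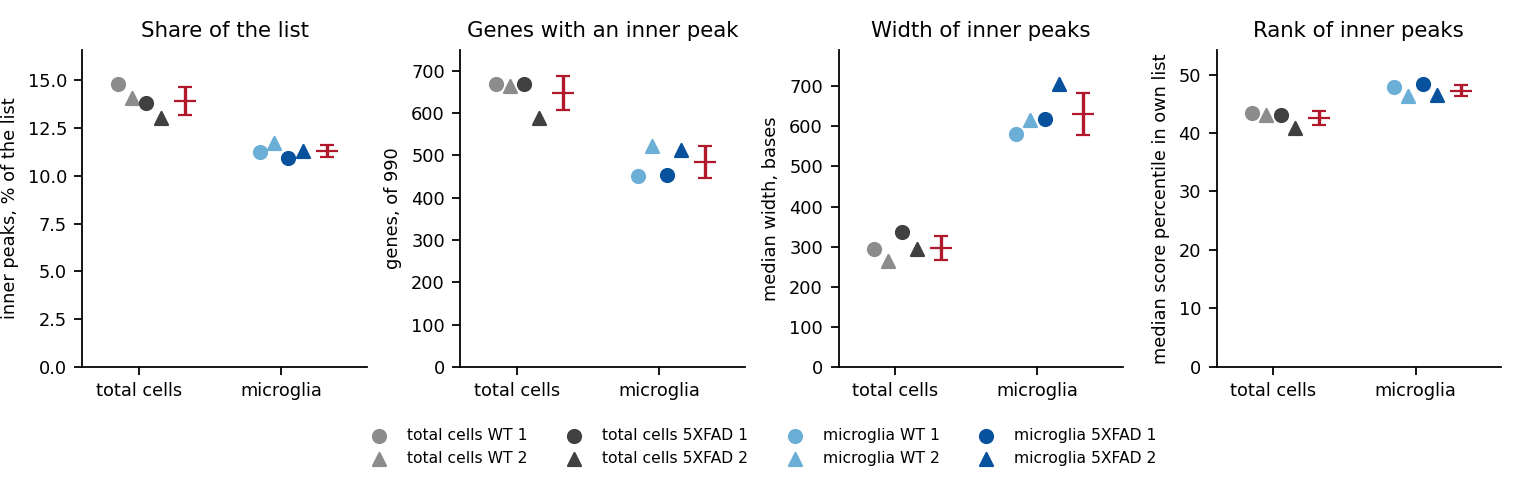
Values per library for peaks inside very long genes: the share of the list in percent, the number of genes with an inner peak, the median width in bases and the median score percentile. Points are libraries, red bars are the mean and SD over the 4 libraries of a preparation, and in all 4 panels total cells and microglia do not overlap.

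The inner peaks were wider in microglia. Their median width was 294.5, 263, 336 and 293 bases in the 4 total cell libraries and 582, 616, 619 and 705.5 bases in the 4 microglia libraries, with no overlap (exact permutation p = 0.0286, adjusted 0.0286). The other peaks of the same lists showed the same contrast, with medians of 292 to 372 bases in total cells and 580 to 738 bases in microglia, so the greater width was not particular to very long genes. Of inner peaks, 2.58% ± 1.23 (SD, n = 4) were wider than 2 kb in microglia and 0.0110% ± 0.0220 in total cells. The score that the authors deposited for each peak has no stated unit, and it was therefore turned into a percentile within its own list. The median percentile of the inner peaks was 42.6 ± 1.18 (SD, n = 4) over the total cell lists and 47.3 ± 1.01 over the microglia lists (exact permutation p = 0.0286, adjusted 0.0286). Without the first library of total cells of 5XFAD mice the width differed by 347 bases and the percentile by 4.81 points (adjusted p = 0.0286 for both, exact permutation). Among peaks with scores of at least 50 the width differed by 374 bases and the percentile by 6.56 points (adjusted p = 0.0571 for both, exact permutation), and in genes over 500 kb the percentile by 2.82 (adjusted p = 0.114, exact permutation).

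Within each list, inner peaks of very long genes ranked lower than the remaining peaks. The median percentile was lower in 8 of 8 lists, by 1.503 to 4.12 points in microglia and by 7.63 to 9.90 points in total cells (mean difference -5.57, SD 3.06, n = 8, exact sign-flip permutation p = 0.00781, adjusted over 3 measures 0.0117). Width was lower by little: the log2 ratio of median widths was -0.0872 (SD 0.0567, n = 8, exact sign-flip permutation p = 0.0156, adjusted 0.0156), and 7 of 8 lists had the lower value in very long genes, the exception being the first library of WT microglia. With scores of at least 50 alone the width ratio was -0.0633 (adjusted p = 0.0547, exact permutation). With the same number of the highest scoring peaks taken from each list, the percentile difference no longer passed (-4.30, adjusted p = 0.0625, exact permutation). Inner peaks of genes of 50 to 200 kb had similar values, so neither trait was particular to very long genes. Their median percentiles were 43.4, 43.1, 44.5 and 44.6 in total cells and 48.9, 47.1, 48.4 and 46.5 in microglia. Very long genes had 43.4, 43.1, 43.0 and 40.8, and 47.9, 46.3, 48.4 and 46.5. Median widths in the shorter genes were 299, 268, 346.5 and 291 bases in total cells and 573, 618, 609 and 687.5 in microglia.

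Very long genes were sparsely marked for their length. The lists held 6.25 to 11.8 inner peaks per Mb of their inner bases, against 15.6 to 30.6 per Mb in the inner bases of genes of 50 to 200 kb, counted with the same margin. The ratio was below 1 in 8 of 8 lists: 0.518, 0.497, 0.438 and 0.437 in total cells and 0.401, 0.401, 0.387 and 0.385 in microglia. The mean log2 ratio was -1.22 (SD 0.164, n = 8, exact sign-flip permutation p = 0.00781, adjusted 0.0117), which is the smallest p these 8 lists allow. The 2 preparations did not overlap in this ratio.

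**Figure D2:**
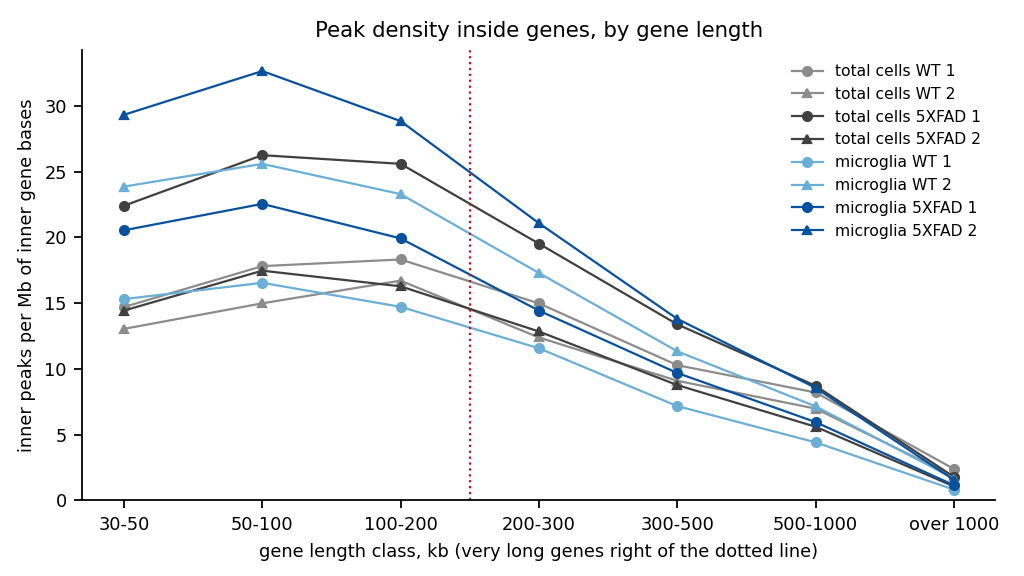
Inner peaks per Mb of inner gene bases (y axis) in classes of gene length in kb (x axis), 1 line per library. Very long genes lie to the right of the dotted line, and in all 8 libraries density is lower in each longer class from the class of 100 to 200 kb to the class over 1000 kb.

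Density was lower in each longer class above 200 kb. In genes of 100 to 200 kb it was 21.7 ± 5.93 per Mb in microglia and 19.2 ± 4.34 in total cells (SD, n = 4 each). In those of 200 to 300 kb it was 16.1 ± 4.07 and 14.9 ± 3.26, in those of 300 to 500 kb 10.5 ± 2.79 and 10.4 ± 2.11, and in those of 500 to 1000 kb 6.52 ± 1.76 and 7.38 ± 1.39. The 59 genes over 1000 kb had 1.30 ± 0.389 inner peaks per Mb in microglia and 1.77 ± 0.545 in total cells. The threshold of 200 kb falls on this slope: genes of 180 to 200 kb had 16.2 per Mb in microglia and 16.4 in total cells, and genes of 200 to 220 kb 13.3 and 13.6. In each class the microglia and total cell ranges overlapped.

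The longest gene, Dmd, which encodes dystrophin, had 1 inner peak in each of the 4 total cell libraries and 0 in the microglia libraries over its 2390.39 kb. In 186 very long genes (18.8%) no list held an inner peak. Those with the most inner bases among them were Il1rapl1 and Il1rapl2, synaptic receptors of the interleukin-1 receptor family, Cntn5, a contactin, Lingo2, a leucine-rich repeat protein of neurons, and Nkain2, a partner of the sodium pump. At the other extreme, 353 genes (35.7%) had an inner peak in every library. The 99 most marked genes held 45.8% of all inner peaks.

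The start of the gene was the most densely marked stretch. For the 744 very long genes whose strand the promoter table gives, peaks in the first 5 kb after the start numbered 59.0 ± 8.56 per Mb in total cells and 50.6 ± 10.9 in microglia (SD, n = 4 each). From 10 to 15 kb the density was 15.1 ± 3.81 and 15.3 ± 4.10, and from 75 to 100 kb it was 11.63 ± 2.15 and 11.99 ± 2.96. On the side of the 3′ end it was 18.2 ± 4.33 and 17.3 ± 5.64 in the last 5 kb and 13.1 ± 2.97 and 12.5 ± 3.08 at 75 to 100 kb. The margin of 10 kb left out the first of these intervals, which stood above all others in 8 of 8 libraries.

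**Figure D3:**
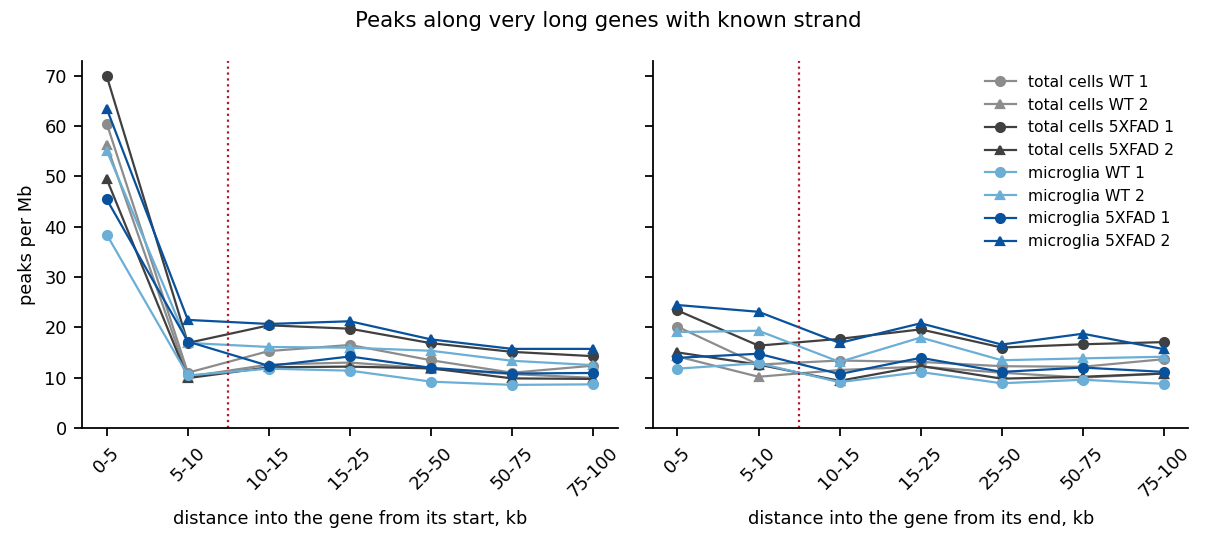
Peaks per Mb (y axis) by distance in kb from the start (left) or the end (right) of 744 very long genes with known strand, 1 line per library. The dotted line marks the 10 kb margin, and in all 8 libraries the first 5 kb after the start stand above all other intervals.

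Genes that were marked at an end were also denser inside. Very long genes with a gene-end peak numbered 357, 338, 364 and 311 in total cells and 250, 331, 276 and 342 in microglia. Their inner density was 2.31 to 3.11 times that of very long genes without a gene-end peak in the same total cell list and 3.78 to 6.43 times in the same microglia list. Of very long genes without a gene-end peak, 51.0% to 58.7% still had an inner peak in total cells and 32.4% to 38.8% in microglia. With an end peak these shares were 77.8% to 84.6% and 75.2% to 85.7%. The ratios of the 2 preparations did not overlap, a difference that was not tested.

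By the numbers as listed, which give longer lists more weight, the genes with the most inner peaks over the 8 libraries were Frmd4a, Zbtb20, Tcf4, Nfia, Elmo1, Snx29, Dock4, Foxp1, Hdac9 and Nav3. Frmd4a and Zbtb20 had the same mean, 31.875. Per 10000 peaks of the list, Zbtb20 had 5.88 in microglia and 17.8 in total cells, Tcf4 7.79 and 15.2, Nfia 7.26 and 14.4 and Frmd4a 14.3 and 7.23. Frmd4a encodes a scaffold protein of cell polarity, Elmo1 a partner of DOCK proteins in Rac activation and engulfment, and Tcf4, Zbtb20, Nfia and Foxp1 are transcription factors. The highest density per Mb, among genes with at least 100 kb of inner bases, was that of Tcf4 with 97.8, followed by Chd9, Rapgef5, Zmiz1, Srgap2, Rapgef2, Etv6, Camk2d, Tns3 and Frmd4b. Tcf4 (gene 21413, chr18:69343429-69687967) had 42, 32, 46 and 36 inner peaks in total cells and 19, 26, 23 and 30 in microglia. Hdac9, a class II histone deacetylase, had 15, 13, 33 and 28 in total cells and 23, 28, 30 and 35 in microglia, so the preparations overlapped. Dock4, an activator of Rac and Rap, also overlapped, with 22, 22, 29 and 15 against 28, 40, 26 and 37, as did Foxp1 with 20, 19, 33 and 24 against 18, 23, 30 and 39.

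Because lists differed in length, inner peaks per gene were scaled to 10000 peaks of the list to compare preparations, and a gene was counted when every library of 1 preparation was above every library of the other. Of 804 very long genes with any inner peak, 79 (9.83%) were higher in microglia and 208 (25.9%) in total cells. The same counts over all 5482 protein-coding genes with such inner peaks were 9.32% and 11.0%. The share higher in microglia was thus near that of all genes, and the share higher in total cells was above it. In numbers as listed the counts were 56 and 147, and with lists cut to equal length 64 and 164. Leaving libraries out can only add genes, as fewer libraries have to be separated. With both libraries of total cells of 5XFAD mice left out the counts were 140 and 331, and without the first of them alone 96 and 230.

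**Figure D4:**
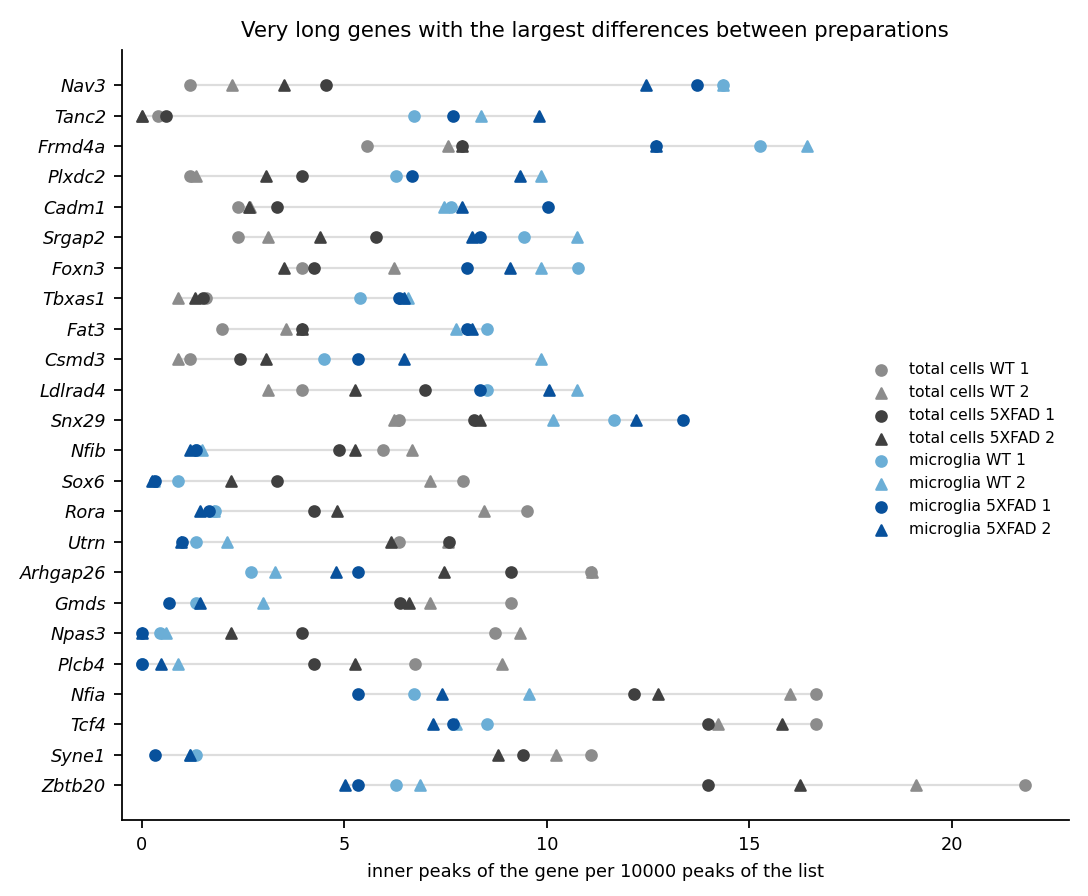
Inner peaks per 10000 peaks of the list (x axis) in each of the 8 libraries for the 12 very long genes with the largest excess in microglia (top) and the 12 with the largest excess in total cells (bottom). Points are libraries, and in each of these genes, chosen by that rule, the points of the 2 preparations do not overlap.

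Nav3 (gene 260315, chr10:109681260-110455722), a neuron navigator that binds microtubules, had the largest excess in microglia. It had 32, 48, 41 and 52 inner peaks in microglia and 3, 5, 15 and 8 in total cells, or 13.7 ± 0.895 against 2.87 ± 1.47 per 10000 peaks (SD, n = 4 each). In microglia these peaks lay mostly on one side of the gene: the farthest ended between 414 and 415 kb from its lower-coordinate end, and beyond the midpoint at 387 kb there were 3, 2, 1 and 3 peaks. In total cells 0, 3, 1 and 0 of the 3, 5, 15 and 8 inner peaks lay beyond the midpoint. Tanc2 (gene 77097, chr11:105589460-105929304), a scaffold of the postsynaptic density, had 15, 28, 23 and 41 inner peaks in microglia and 1, 0, 2 and 0 in total cells. Frmd4a had 34, 55, 38 and 53 against 14, 17, 26 and 18. Further genes with a large excess in microglia were Plxdc2, a transmembrane receptor with a plexin domain, Cadm1, an adhesion molecule, Srgap2, a GTPase activator that shapes membrane protrusions, Foxn3, a forkhead factor, and Tbxas1. Tbxas1 (gene 21391, chr6:38864159-39084590) had 12, 22, 19 and 27 inner peaks in microglia and 4, 2, 5 and 3 in total cells.

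In the other direction Zbtb20 (gene 56490, chr16:42875689-43634392), a zinc finger repressor, had 55, 43, 46 and 37 inner peaks in total cells and 14, 23, 16 and 21 in microglia. That is 17.8 ± 3.403 against 5.88 ± 0.847 per 10000 peaks (SD, n = 4 each). Syne1 (gene 64009, chr10:5020192-5550692), which encodes a nesprin that ties the nucleus to the cytoskeleton, had 28, 23, 31 and 20 in total cells and 3, 4, 1 and 5 in microglia. Plcb4, a phospholipase C, had 17, 20, 14 and 12 against 0, 3, 0 and 2. Npas3, a transcription factor of the bHLH-PAS family, had 22, 21, 13 and 5 against 1, 2, 0 and 0. Within total cells its values were higher in the WT libraries, as were those of Sox6 (20, 16, 11 and 5) and Rora (24, 19, 14 and 11), with 2 libraries against 2. Some genes separate in this way by chance, and the share of all very long genes that do so within total cells was not counted. These values are therefore no sign of a genotype difference.

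**Figure D5:**
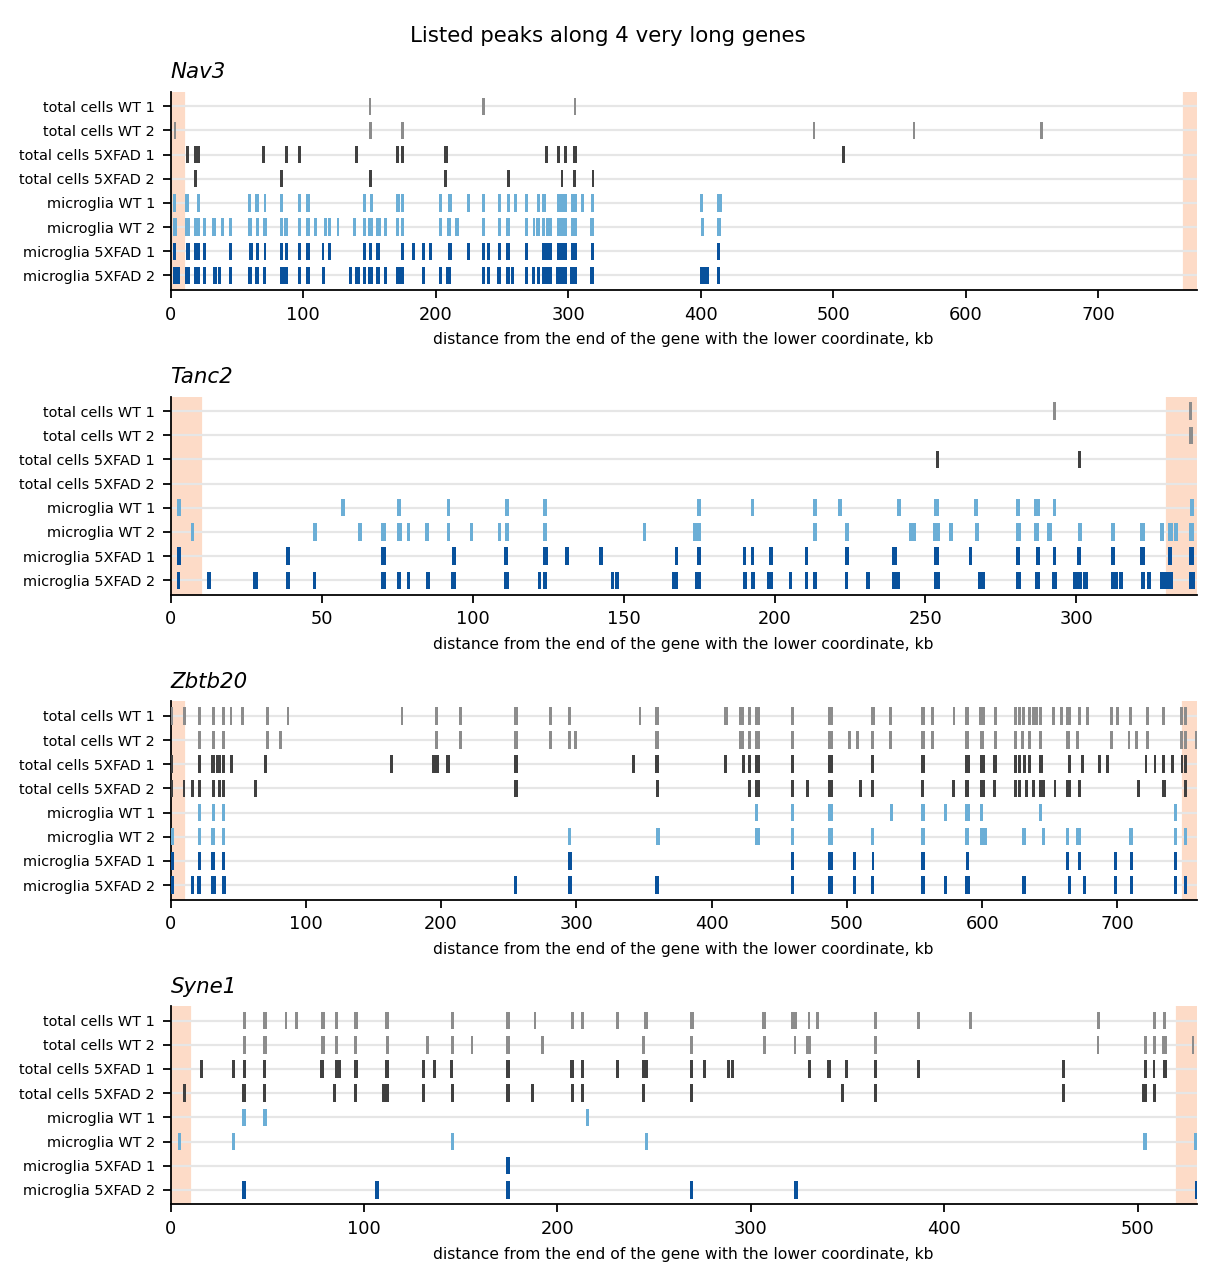
Listed peaks of each of the 8 libraries along Nav3, Tanc2, Zbtb20 and Syne1, by distance in kb from the end with the lower coordinate. Each bar is a peak, widened slightly for visibility, and the shaded margins of 10 kb were left out of the counts. Nav3 and Tanc2 have more bars in the 4 microglia rows, Zbtb20 and Syne1 in the 4 total cell rows.

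Lists of very long genes grouped by role differed in which preparation held more inner peaks. The lists were chosen with earlier results of these data known, so their shares are descriptions and carry no test. Among genes of microglial and leukocyte signalling, 13 of 26 were higher in microglia and 2 in total cells, or 50% and 7.69%, against 79 (7.98%) and 208 (21.0%) of all 990. They included Dock2, a Rac activator of leukocytes (6, 10, 9 and 21 in microglia, 3, 0, 5 and 4 in total cells), Dock8, Prkcb, Slc8a1, Plxdc2 and Srgap2. Dock8 had 15, 17, 8 and 15 inner peaks in microglia and 5, 4, 7 and 3 in total cells. The inner density of the list was 37.5 ± 10.1 per Mb in microglia and 19.8 ± 6.86 in total cells (SD, n = 4), against 8.97 ± 2.34 and 8.98 ± 1.77 over all very long genes. Without scaling 7 of the 26 were higher in microglia, and with equal list lengths 8. Slc8a1 was not counted in either of these settings. The 2 members higher in total cells were Diaph3, a formin, and Vav3.

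Transcription factors stood in both directions. Of 32 very long genes in that list, 14 (43.8%, against 21.0% of all 990) were higher in total cells, among them Zbtb20, Tcf4, Nfia, Nfib, Rora, Npas3, Sox5, Sox6 and Tox, and 4 (12.5%, against 7.98%) were higher in microglia, namely Maml3 (a coactivator of Notch), Zfhx3, Etv6 and Runx1. Runx1, a factor of blood and microglial development, had 3, 10, 7 and 16 inner peaks in microglia and 1, 0, 2 and 2 in total cells. Nfib, a factor of glial and neuronal development, had 15, 15, 16 and 12 in total cells and 3, 5, 4 and 5 in microglia. Sox5 had 13, 11, 6 and 8 against 0, 1, 0 and 1. Without scaling the numbers were 10 and 2.

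Genes of synaptic and neuronal adhesion had few inner peaks per Mb and were also longer than most, with a median span of 920 kb against 325 kb. The 54 very long members had 1.08 ± 0.378 inner peaks per Mb in microglia and 1.85 ± 0.716 in total cells (SD, n = 4), where all genes of 500 to 1000 kb had 6.52 and 7.38 and all genes over 1000 kb 1.30 and 1.77. An inner peak in any library was found in 37 of the 54, against 804 of 990. Of the 54, 10 (18.5%) were higher in total cells and 3 (5.56%) in microglia, near the 21.0% and 7.98% of all 990. Nlgn1, a postsynaptic neuroligin, had 9, 11, 8 and 3 inner peaks in total cells and 0 in all 4 microglia libraries, and Lsamp, a neuronal adhesion molecule of the immunoglobulin family, had 11, 6, 5 and 2 and again 0. Csmd3 went the other way, with 10, 33, 16 and 27 in microglia against 3, 2, 8 and 7 in total cells, as did Sdk1 and Dscaml1.

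The remaining lists are read against the same 21.0% higher in total cells and 7.98% higher in microglia of all 990. Of the 990, 186 had no inner peak and could not be counted, and over the other 804 the shares were 25.9% and 9.83%. Lists differed in this: 12 of 20 glutamate and GABA receptor genes had an inner peak, but all 9 phosphodiesterases and all 8 receptor tyrosine phosphatases. Glutamate and GABA receptor genes had 3 of 20 (15%) higher in total cells, namely Gabrb1, Grid1 and Gria1, and 1 of 20 with equal list lengths, and 0 higher in microglia. Among synaptic scaffolds and vesicle genes it was 7 of 25 (28.0%) and 0, and among phosphodiesterases 5 of 9 (55.6%) and 0. Among glia and myelin genes 8 of 20 (40%) were higher in total cells and 0 in microglia, but 4 in numbers as listed and 5 with equal list lengths. Kinase signalling genes had 11 of 25 (44.0%) higher in total cells, such as Ntrk2, the receptor of BDNF (7, 8, 8 and 3 in total cells, 1, 1, 1 and 2 in microglia). The 1 kinase gene higher in microglia was Igf1r, the receptor of insulin-like growth factor, with 13, 21, 20 and 23 against 5, 3, 12 and 6. Receptor tyrosine phosphatases had 5 of 8 (62.5%) higher in total cells and 1, Ptpro, in microglia, which was not counted in numbers as listed or with equal list lengths. Shares near or below those of all 990 were found for chromatin regulators (3 of 14 higher in total cells and 1, Chd9, in microglia) and ion channels and their partners (3 of 33 and 2). RNA binding and splicing genes had 2 of 8 (25%) higher in total cells and 1 (12.5%) in microglia. Common fragile site genes had 3 of 18 (16.7%) and 2 (11.1%). These shares rest on 1 to 3 genes each.

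Of 7 Alzheimer-associated genes of this length, 0 were higher in either preparation per 10000 peaks of the list, and 1 was higher in microglia in numbers as listed. App, which encodes the amyloid precursor protein, had 9, 6, 12 and 5 inner peaks in total cells and 7, 8, 8 and 9 in microglia. Apbb2, a protein that binds the tail of the precursor, had 13, 8, 20 and 12 against 5, 11, 10 and 15. The 3 sorting receptors Sorcs1, Sorcs2 and Sorcs3 had between 0 and 4 inner peaks in any library.

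A gene could also be marked inside in every library of 1 preparation and in none of the other. There were 59 such genes (7.34% of 804) for total cells, against 3.10% of the 5482 coding genes with an inner peak, led by Nlgn1, Lsamp, Plekhg1, Pcdh9 and Tox, and 5 (0.622%) for microglia, against 1.97%, namely Pld5, Abca13, Fbn2, Dync2h1 and Hs6st2. The 5 microglia genes had 1 to 2 inner peaks per library. Some of the 59 had as few: Dmd, Fbn1, Gria1, Gulp1, Rab3c, Samd5 and Zfp978 had 1 in each total cell library. With equal list lengths these genes were not counted as higher in total cells.

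At the level of single regions, recurrence between libraries was low. Of the 10736 regions, 4773 (44.5%) were listed in 1 library alone, against 37.9% of all merged regions, and 394 (3.67%) in all 8 libraries, against 7.19% of all merged regions. The 394 regions lay in 199 genes, with 11 in Tcf4, 9 in Nfia and 7 each in Frmd4b, Maml2 and Zbtb20. Their median width was 1415 bases and their median score percentile 75.6, against 449 bases and 34.5 over all 10736 regions. A merged region spans all of its peaks, so regions from 8 lists tend to be wider by the merging itself. The regions were also chosen by recurrence, so neither value is a trait independent of that choice. The highest ranked were in Zfp407, a zinc finger gene (chr18:84293247-84294320, mean percentile 99.9), and Rere, a corepressor gene (chr4:150544369-150546527, 99.1). Dennd1b, Hdac9, with 2 regions, Bbx, Nfia, Rapgef2, Tcf4 and Lpp completed the first 10, at 97.2 to 98.6. Of the 394 regions, 8.38% overlapped a promoter window.

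Microglia-only regions, listed in all 4 microglia libraries and none of total cells, numbered 374 (3.48%), against 4.51% of all merged regions. Total-cell-only regions numbered 193 (1.80%), against 1.34%. Nav3 held 11 of the microglia-only regions, and Cadm1, Fat3, Igf1r and Zmiz1 held 7 each. By score percentile the leading ones were in Col25a1, the collagen-like amyloid plaque component (chr3:130273218-130274450, mean percentile 93.8 ± 4.50, SD, n = 4), Ank2, an ankyrin (chr3:127294771-127296455, 93.0 ± 2.13), Baz2b (92.1 ± 3.75) and Sipa1l1 (91.8 ± 2.98). Others of the first 10 were in Lrba, Igf1r, Zmiz1, Ctif, Fat3 and Csmd3. Igf1r held the widest of these, 4337 bases at chr7:67971655-67975991. The count was 616 without the first library of total cells of 5XFAD mice and 646 without the first library of WT microglia.

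The leading total-cell-only region was in Rora, a nuclear receptor (chr9:69259435-69259867), with score percentiles of 99.8, 99.7, 93.6 and 96.4. It was followed by regions in Pcca, a subunit of propionyl-CoA carboxylase (chr14:122825303-122826103, mean 93.4 ± 4.26, SD, n = 4), Pde4b, Ntrk2, Sox5, Ntrk3, Nlgn1, with 2, Lrba and Magi3. Pcca, Rora and Syne1 held 4 total-cell-only regions each. Lrba, which encodes an anchoring protein of vesicle trafficking, held regions of both kinds, one in total cells at chr3:86301856-86302506 and one in microglia at chr3:86761382-86762097. Without the second library of total cells of 5XFAD mice the total-cell-only count was 387.

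No difference between genotypes passed the test. The share of inner peaks was 11.1% in 5XFAD and 11.5% in WT microglia, and 13.4% and 14.4% in total cells (means of 2). Over both preparations the difference was -0.687 percentage points (exact stratified permutation p = 0.111, adjusted 0.222). The number of marked genes differed by -21 (p = 0.444, adjusted 0.593, exact permutation), the median width by 49.5 bases (p = 0.111, adjusted 0.222, exact permutation) and the score percentile by -0.482 points (p = 0.667, adjusted 0.667, exact permutation). With genotypes exchanged only within a preparation the smallest possible p is 0.0556, and within 1 preparation it is 0.333, so this design cannot pass 0.05.

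Regions in all 4 5XFAD libraries and no WT library numbered 33 (0.307%), against 0.300% of all merged regions, and the reverse 3 (0.0279%), against 0.0245%. Both shares were near those of all regions. When lists were cut to equal length the counts were 21 and 7. The 33 lay in 32 genes, and Elmo1 held 2. The leading ones were in Fmn1, a formin (chr2:113459551-113460391), with score percentiles of 70.6 and 70.04 in total cells and 82.4 and 83.4 in microglia, and in Cdkal1, a tRNA-modifying enzyme (chr13:29306052-29308772), with 68.9, 86.0, 68.8 and 79.7. Xylt1, Sdk1, Acaca, Etl4, Med13l, Esrrg, Spidr and Snx29 held the next ones, and those in Sdk1 and Etl4 overlapped a promoter window. The 3 WT-only regions were in Ppp1r9a, which encodes neurabin, Maml3 and Ablim1. Leaving out 1 library moved the 5XFAD-only count to between 33 and 98 and the WT-only count to between 3 and 21.

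Within microglia, 545 regions (5.08%) were in both 5XFAD libraries and neither WT library, against 6.11% of all merged regions, and 146 (1.36%) were the reverse, against 1.23%. When lists were cut to equal length these counts were 277 and 263. Within total cells the counts were 562 (5.23%, against 5.47%) and 493 (4.59%, against 3.30%). The 4 pairs of microglia libraries that mix the genotypes shared 9 to 372 regions that were in neither other microglia library, and the 4 such pairs of total cells 87 to 307.

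Inside very long genes, libraries of a group shared more than any 2 libraries of different preparations. In microglia the Jaccard index of covered bases was 0.476 and 0.519 within a group and 0.352 to 0.469 between genotypes. In total cells it was lower, 0.285 and 0.295 within a group and 0.191 to 0.226 between genotypes. Between preparations it ran from 0.0727 to 0.235, so it overlapped the range between genotypes of total cells, through the first 5XFAD library of total cells. Pairs share libraries, so these values carry no test.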

How the data were processed

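CUT&Tag for H4K12la was analysed in 8 libraries, grouped and numbered by their sample titles. The authors deposited 1 peak list per library without a header, each line giving chromosome, start, end and a whole-number score. The build was GRCm38 (mm10) and the tools named, per the submitters' processing notes, include Bowtie2, deepTools and fastp 0.19.6. Peak caller, threshold and control: not given in the sources used here. As the deposited score has no stated unit and its lowest value was 20 in all lists, it was used only as a percentile within a list. Peaks appear to have been listed per library.

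Gene spans came from RefSeq (GRCm38.p6), and starts were converted to count from 1. Peaks on other sequences (219, 0.0948%) were not used. Members and gene lists were chosen with earlier results of these data known. No 2 lists shared more than 192 exact intervals, so none was counted as a copy.

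Libraries were compared by exact two-sided permutation tests (70 assignments of 4 against 4, 36 of genotype within preparation, 256 sign patterns within lists), with Benjamini-Hochberg adjustment over the 4 or 3 measures and a threshold of 0.05. One-group regions and genes are counts beside the same count over all features. Named were the 10 genes with most inner peaks and with highest density, the longest gene, 5 unmarked genes, the 10 regions of each kind with the highest mean percentile, list members, and, chosen after their values were seen, the genes with the largest scaled differences. Alternatives were equal list lengths (22284 peaks), scores of at least 50, genes over 500 kb, a margin of 50 kb, peaks near other gene ends left out, merging over 500 bases, each library left out and a replicate block. Further alternatives on the gene counts were chosen after seeing the data. Overlap code and tests were tested on simulated data (Python 3.11.15, numpy 2.4.6, pandas 2.3.3).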

Additional observations from a re-analysis of the deposited data

Results flagged for a closer look

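In the 91 groups of 4 libraries looked at (the 4 measures and the named genes' inner peaks per 10000 peaks of the list, in each preparation), 7 had a library far from the other 3, where chance gives about 1 in 20. The second library of total cells of 5XFAD mice had 588 very long genes with an inner peak, below the 664 to 668 of the other total cell libraries, and 6.15 scaled inner peaks in Etv6, above 4.76 to 4.89. The first library of total cells of WT mice had 5.55 in Frmd4a, below 7.55 to 7.90. The first library of WT microglia had 11.2 in Frmd4b, above 7.90 to 8.06, and 0.898 in Sox6, above 0.239 to 0.334. The Sox6 value rests on 2 listed peaks, against 1 in each of the other microglia libraries. The first library of 5XFAD microglia had 0.334 in Syne1, below 1.19 to 1.35, and 10.02 in Cadm1, above 7.47 to 7.90.

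In 7 of the named genes, both 5XFAD libraries lay on one side of both WT libraries in microglia and on the other side in total cells. This difference between preparations was not tested. With 2 libraries against 2 in each preparation, some genes separate in this way by chance. The share of all very long genes that do so was not counted, so the 7 are no sign of a genotype difference. As 5XFAD minus WT, in scaled inner peaks, Frmd4a was -3.15 in microglia and 1.35 in total cells. Nav3 was -1.27 and 2.33. Chd9 was -1.46 and 1.63, Srgap2 -1.84 and 2.34, Camk2d -1.83 and 2.99, and Frmd4b -1.68 and 2.25. Arhgap26 went the other way, with 2.08 in microglia and -2.81 in total cells.

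Outside the chromosomes used, the lists held 219 peaks, 3 to 6 per list on the mitochondrial genome and 13 to 36 on unplaced sequences.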

How the results depend on the processing

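Of 257 values under alternatives, 212 kept their direction and side of the threshold, or stayed within 1.5 times for counts. With scores of at least 50, the differences between microglia and total cells were -1.03 points for the share, -63.5 genes, 374 bases and 6.56 percentile points (adjusted p = 0.114, 0.114, 0.0571 and 0.0571, exact permutation), the log2 width ratio to the other peaks was -0.0633 (adjusted p = 0.0547, exact permutation), and the genotype differences turned to 5.5 genes and 0.268 percentile points. In genes over 500 kb the percentile differed by 2.82 between preparations (adjusted p = 0.114, exact permutation). With equal list lengths the genotype difference in percentile turned to 1.18, inner peaks ranked -4.30 points from the rest (adjusted p = 0.0625, exact permutation), and the one-genotype counts were 21 and 7 over both preparations and 277 and 263 in microglia. The causes were not tested.

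Replicate numbers showed little pairing of the samples (correlations of deviations between groups -0.0414 to 0.141). With 2 libraries per group this cannot show whether microglia and total cell libraries share animals. With the replicate block the differences were -2.65 points, -162.5 genes, 334 bases and 4.68 percentile points at p = 0.0556, the smallest p it allows, in the exact permutation test.

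With each library left out, the genotype difference in percentile ran from -1.02 to 0.0564, turning only without the second library of total cells of 5XFAD mice. Region counts, for which fewer libraries have to match, ran from 384 to 646 (microglia only), 196 to 387 (total cells only), 33 to 98 (5XFAD only), 3 to 21 (WT only), 545 to 1648 and 146 to 837 within microglia, and 562 to 2210 and 493 to 1664 within total cells. Gene counts, which can likewise only rise, were 83 to 96 and 212 to 266, and with both libraries of total cells of 5XFAD mice left out 140 and 331. In numbers as listed the gene counts were 56 and 147, and with equal list lengths 64 and 164. Depth is unknown and limits what an unlisted peak shows.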
